A study of Mus musculus with 35 samples.

Results

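The pancreatic lymph node of 8 week old NOD mice was set against the same tissue of NOD.B10 mice on 4 of the 35 arrays of the series, those whose titles give that age. NOD (NOD/LtJ) is an inbred strain whose females develop autoimmune diabetes. NOD.B10 (NOD.B10Sn-H2b/J) carries the H2b haplotype of the major histocompatibility complex (MHC) on an otherwise NOD background and served as the control strain. Each array held RNA of female NOD mice in the green Cy3 channel and RNA of female NOD.B10 mice in the red Cy5 channel, and no array had its dyes exchanged. The control mice formed 2 groups of 10, aged 10 days and 20 weeks, so no control of 8 weeks is named, and the labels do not say which control RNA was on which array or whether it was pooled. Every NOD sample, at 8 weeks and at the other ages (10 days, 7 arrays; 4 weeks, 6; 12 weeks, 7; 16 weeks, 6; 20 weeks, 5), carries the label diabetic. The control side is treated as a single sample, and its own spread was not measured. A ratio therefore cannot tell strain apart from dye, or from the age of the control mice. Nothing states that the 4 arrays came from separate animals, so p-values cover only array-to-array spread, part of which may be technical. That spread was estimated over all 35 arrays, so a p does not rest on the SD of 4 arrays printed beside it.

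The pancreatic node drains the pancreas and is where T cells first meet islet antigens in NOD mice. MHC class I and class II molecules present peptides to those T cells, class II after loading by H2-DM in endosomes and class I after folding with chaperones in the endoplasmic reticulum. In NOD females of this age, immune cells have usually begun to gather around the islets while blood glucose is still normal.

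Ratios are given as log2 of the NOD signal over the NOD.B10 signal, and positive ones mean more signal in NOD. A gene was called where the adjusted p (limma, Benjamini-Hochberg) was under 0.05 and the absolute log2 ratio was at least 1. On the 4 arrays 74.4% to 87.8% of spots were well above background in the NOD channel, against 43.6% to 73.5% in the NOD.B10 channel. Replicates 1, 3 and 4 were read on the same scanner and day, and replicate 2 on another scanner and day with a later version of the reading software. Across all genes, which are not independent, replicate 2 correlated with replicates 1, 3 and 4 at r = 0.17, 0.253 and -0.00893, while the other pairs reached 0.386 to 0.528. Replicate 2 also stood apart in its pancreatic transcripts, as given below, and results that rest on it are given with and without it. Among lymph node markers, both channels of all 4 arrays were well above background for Cd3e, Cd4, Cd8a, Ccr7, Ccl19 and Cxcl13, whereas Cd79a cleared it in NOD.B10 on 3 arrays and Ccl21a was not measured under that symbol.

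Of 28439 genes tested, 272 (0.956%) were called, 44 of them (0.155%) higher and 228 (0.802%) lower in NOD. Of the 228 lower calls, 113 had neither channel well above background on any of the 4 arrays. In 13128 genes both channels of all 4 arrays were well above background, and 67 of these were called, 16 higher and 51 lower. Leaving out replicates 1, 2, 3 or 4 in turn gave 43, 37, 36 and 64 calls among them, and 87, 325, 100 and 183 over all genes. Except for Gfer, the arrays whose omission ended a call are named with the gene or its list. Losses to other processing or to a batch block are named for some genes only, and are counted at the end. When the 4 arrays were fitted alone, with no spread borrowed from the other ages, 4 genes were called.

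**Figure D1:**
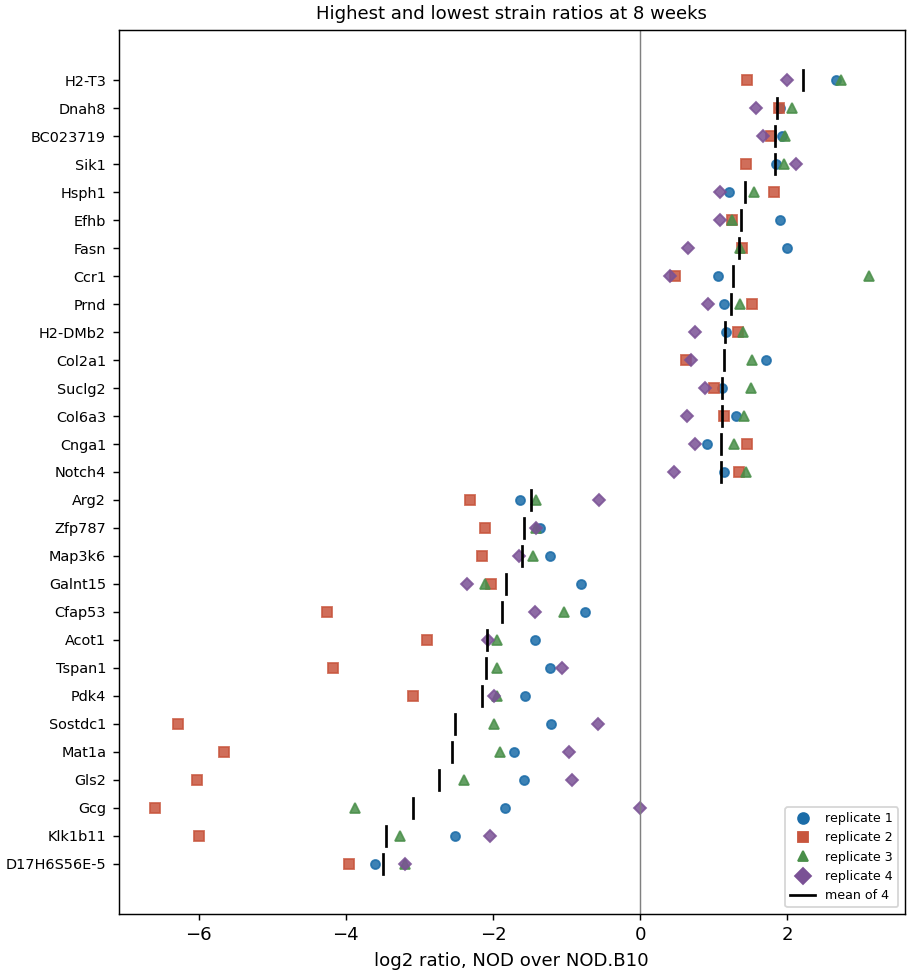
Log2 ratio, NOD over NOD.B10 (x axis), of the 15 highest and 14 of the 15 lowest named genes at 8 weeks (y axis), with 1 symbol per array and a black bar for the mean of 4. The genes at the top lie to the right of 0 on every array, and for Gcg, Gls2, Mat1a, Sostdc1, Tspan1, Cfap53 and Klk1b11 the square of replicate 2 lies far to the left of the other arrays.

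Among the named genes, the lowest and the highest ratio belonged to the MHC region of chromosome 17. D17H6S56E-5, a transcript of that region, had NOD signals of 505, 633, 589 and 965 on replicates 1 to 4, against NOD.B10 signals of 6130, 9870, 5380 and 8840. The channels did not overlap, and the log2 ratio was -3.49 ± 0.37 (SD, n = 4; adjusted p = 1.44e-11), with a second probe at -3.58. H2-T3, which encodes a non-classical class I molecule, had NOD signals of 630, 374, 554 and 384, against NOD.B10 signals of 99.5, 137, 83.4 and 96.3. The NOD.B10 signal never stood well above background, so with this processing the NOD signal was at least 3.07-fold higher (adjusted p = 2.4e-06). After normexp background correction and loess the log2 ratio of H2-T3 was 0.62, and its call was lost. The fold takes the brighter channel against the higher of the dim channel's own signal and the lowest signal well above background, and it is open to dye bias. BC023719, next to these class I genes, was likewise at least 2.38-fold higher in NOD (adjusted p = 0.0132), a call that was lost without replicate 1 or 3. It was also lost after normexp with loess, at a log2 ratio of 0.51.

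Several class I genes were lower in NOD, and class II genes went both ways. Of 21 class I genes measured, 1 was called higher and 3 lower, and the list median was -0.34 against -0.04 over all genes. The medians on replicates 1 to 4 were -0.18, -0.38, -0.31 and -0.79, and without replicate 4 the list median was -0.20. Called lower were H2-T23, which encodes the Qa-1 molecule, at -0.97, -1.1, -0.86 and -1.52 on replicates 1 to 4, a mean of -1.11 ± 0.29 (SD, n = 4; adjusted p = 1.38e-05). H2-T10 stood at -1.11 ± 0.21 (adjusted p = 2.86e-06) and H2-Q2 at -1.25 ± 0.50 (adjusted p = 0.0141). The call of H2-Q2 was lost without replicate 1, 3 or 4, that of H2-T23 without replicate 4, and while H2-T10 stayed called whichever array was left out. With no size limit, 9 class I genes passed as lower and 1 as higher, beside 434 (1.53%) lower and 391 (1.37%) higher of all genes. The 9 became 6, 7, 6 and 4 without replicates 1, 2, 3 and 4. The additional ones included the classical gene H2-D1 at -0.53 ± 0.33 (adjusted p = 0.0392), which was lost without any 1 of the 4 arrays, whereas H2-K1 (-0.34 ± 0.32; adjusted p = 0.501) and B2m, the shared light chain (-0.24 ± 0.27; adjusted p = 0.353), did not pass. Class I genes are near-identical copies, so the signal of a probe may be shared between them, and 3 H2-Q1 probes stood at 0.07, -0.57 and -0.69. The strains differ in their H2 haplotype, and no probe sequences were at hand. Whether probes of the MHC region, class I or class II, bind RNA of both haplotypes alike was therefore not tested.

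H2-DMb2, a chain of the chaperone that loads class II peptides, was at 1.17, 1.33, 1.40 and 0.75 in NOD over NOD.B10. All 4 arrays were above 0, with a mean of 1.16 ± 0.29 (SD, n = 4; adjusted p = 5.68e-05), and its second probe gave the same 1.16. The call of H2-DMb2 was lost after normexp with loess. H2-DMb1, the other beta chain gene, lay on the other side at -0.65 ± 0.21 (adjusted p = 0.0464, under the size limit, and lost without any 1 of the 4 arrays), and H2-DMa, the alpha chain, did not pass at -0.23 ± 0.12 (adjusted p = 0.622). The class II beta chain H2-Ab1 stood at 0.53 ± 0.20 (adjusted p = 0.0226, under the size limit, and lost without replicate 1, 2 or 3) on its brightest probe, while its 3 other probes lay between -0.10 and 0.31. H2-Aa, the alpha chain, had 1 probe at 0.59 and another at -1.40, so it has no settled direction. The invariant chain Cd74 (0.36 ± 0.43; adjusted p = 0.2) and H2-Eb1 (0.21 ± 0.46; adjusted p = 0.676) did not pass. Of 15 class II and loading genes, 1 was called, and the list median of -0.18 was 0.10 after normexp with loess, 0 with the deposited values and 0.02 without replicate 4, so it has no settled sign.

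**Figure D2:**
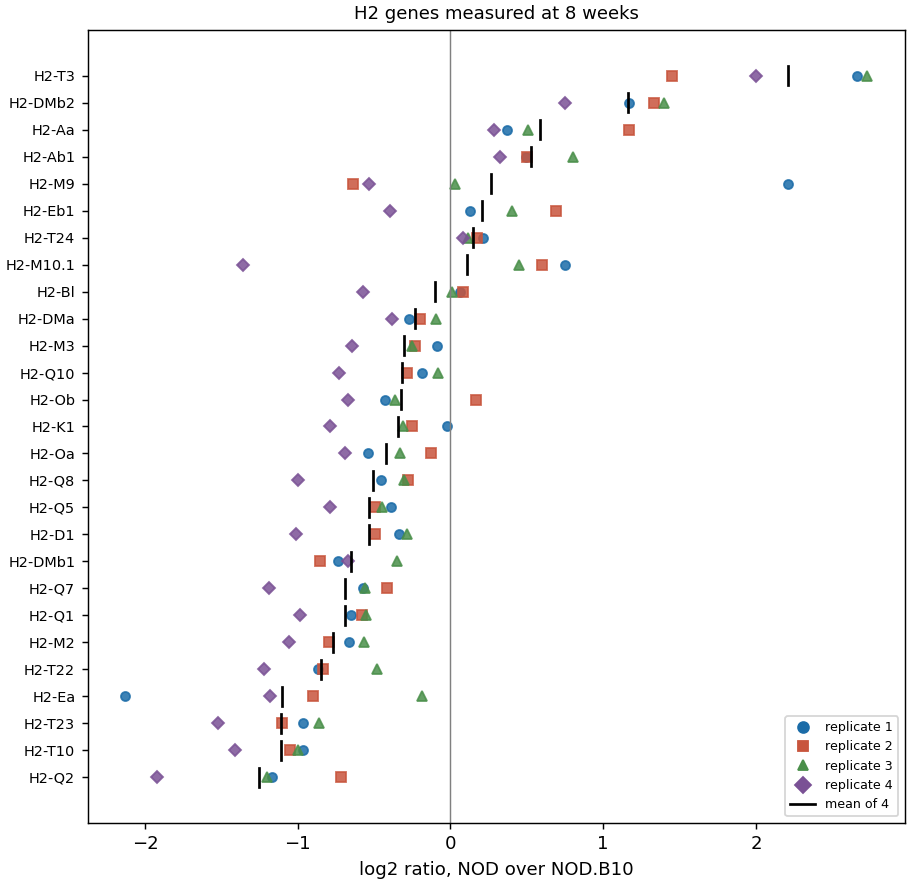
Log2 ratio, NOD over NOD.B10 (x axis), of the H2 genes measured at 8 weeks (y axis), with 1 symbol per array and a black bar for the mean of 4. Most class I genes lie left of 0, H2-T3 and H2-DMb2 lie right of it on every array, and H2-M9 and H2-M10.1 scatter to both sides.

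In the gene order of the GRCm38.p6 annotation, 8 of 158 tested genes from H2-K1 to H2-M2 were called (5.06%, 4 higher and 4 lower), and 3 of the 123 there not named H2 (2.44%). Before H2-K1 it was 8 of 398 (2.01%), after H2-M2 3 of 359 (0.836%), and on the other chromosomes 136 of 18345 placed genes (0.741%). These shares are a description, and position was not tested. Within the interval Notch4, a receptor of vascular endothelium, was at 1.1 ± 0.45 (SD, n = 4; adjusted p = 1.98e-04), and was lost without replicate 3 and after normexp with loess. Before it lay Dnah8, an axonemal dynein heavy chain, at 1.86 ± 0.20 (adjusted p = 7.29e-10) on its brightest probe, while its 2 dimmer probes read -0.24 and -0.68. The call of Dnah8 was lost after normexp with loess. Sik1, a kinase of the salt-inducible family, was at 1.85, 1.44, 1.95 and 2.12 on the 4 arrays (adjusted p = 0.00321), and was lost with the scanner as a block. Gfer, a sulfhydryl oxidase of the mitochondrial intermembrane space, was lower at -1.08 ± 0.44 (adjusted p = 7.9e-05). Whether the call of Gfer, close to the size limit, stays without single arrays was not examined.

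Several molecular chaperones were higher in the NOD node. Of the 26 measured genes of the heat shock and unfolded protein response list, 3 were called higher and 0 lower (limma), and with no size limit 10 passed as higher and 0 as lower, against the 1.37% and 1.53% of all genes given above. The list median was 0.37. Hsph1, a cytosolic co-chaperone of the Hsp70 system, had NOD signals of 6400, 17700, 7410 and 5070, against NOD.B10 signals of 2770, 5000, 2530 and 2400, a ratio of 1.42 ± 0.34 (SD, n = 4; adjusted p = 0.0158). Calr, the lectin chaperone of the endoplasmic reticulum that also helps class I molecules to fold, was at 1.15, 1.01, 1.15 and 1.02, a mean of 1.08 ± 0.08 (adjusted p = 2.1e-05), though its second probe read 0.41. Pdia4, a disulfide isomerase of the same compartment, was at 1.06, 0.69, 0.96 and 1.39 (mean 1.02 ± 0.29; adjusted p = 0.00321). Every array put these 3 genes higher in NOD.

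Under the size limit, the cytosolic chaperones Dnajb1 (0.99 ± 0.65; adjusted p = 0.00612), Dnaja1 (0.97 ± 0.40; adjusted p = 0.0218) and Hsp90aa1 (0.92 ± 0.15; adjusted p = 0.0386) passed, as did mitochondrial Hspd1 at 0.66 ± 0.04 (adjusted p = 0.025). So did Hsp90b1 (0.77 ± 0.26; adjusted p = 0.0214), Pdia6 (0.65 ± 0.49; adjusted p = 0.0456) and Creld2 (0.56 ± 0.50; adjusted p = 0.0235), which act in the endoplasmic reticulum. Hspa1a, an inducible Hsp70, was at 1.06 ± 0.43 but missed the threshold (adjusted p = 0.0755), while Hspa1b, another inducible Hsp70, stood at -0.195 and did not pass. Herpud1 (-0.53 ± 0.86; adjusted p = 0.274) and Xbp1 (-0.28 ± 0.47; adjusted p = 0.634) did not pass either. With no size limit, 2, 5, 3 and 5 of the 26 passed as higher without replicates 1, 2, 3 and 4, and 4 with the scanner as a block. Hsph1 was no longer called without replicate 1, 2 or 3, and Pdia4 without replicate 4, whereas Calr stayed called whichever array was left out. Both Calr and Pdia4 were lost after normexp with loess and with the software version as a block. In each of those settings 1 of the 26 was called. Of the 7 under the size limit, each was lost in the omission of at least 1 array, Hsp90aa1 and Hspd1 in that of any. The ratios did not order the arrays alike. Dnajb1 was highest on replicate 2 (1.70) and lowest on replicate 4 (0.14), while Creld2 was lowest on replicate 2 (0.09) and highest on replicate 4 (1.27). The mean over the whole list was 0.479, 0.175, 0.452 and 0.582 on replicates 1 to 4, an order of arrays that Pdia4 shared. The acinar list, given below, ranked the arrays in that order too. Hsph1, like Dnajb1, was instead highest on replicate 2 and lowest on replicate 4. The part of the acinar signal in the ratios of the chaperone list, Creld2 among them, was not tested. Calr lay between 1.01 and 1.15 on the 4 arrays.

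**Figure D3:**
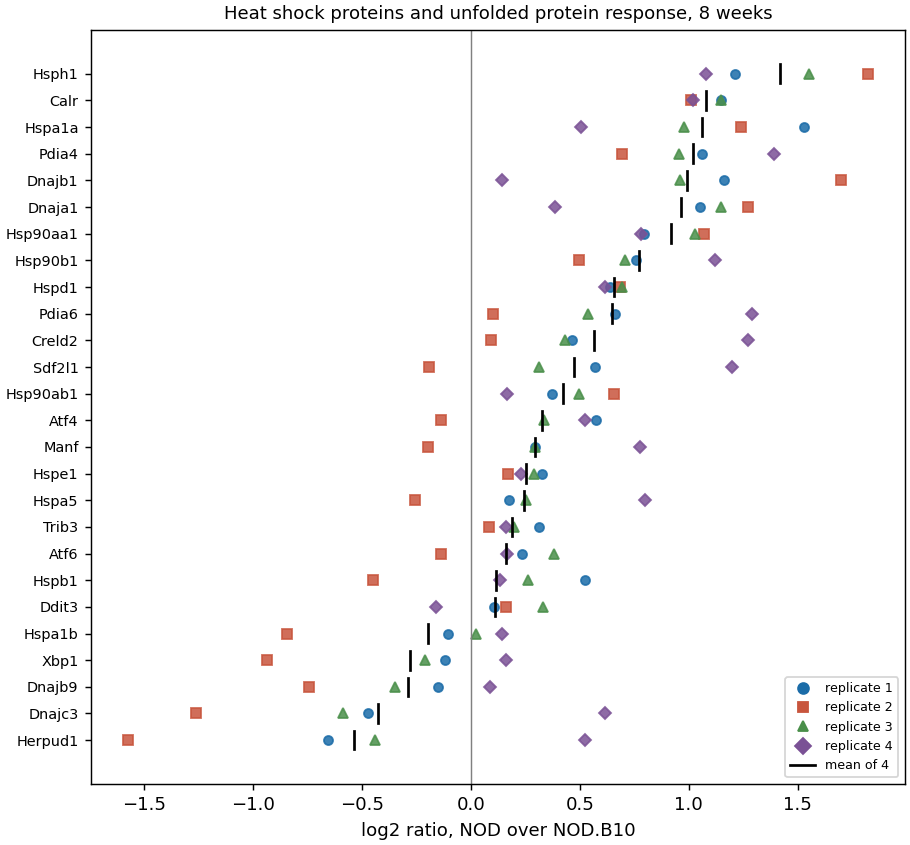
Log2 ratio, NOD over NOD.B10 (x axis), of the 26 genes of the heat shock and unfolded protein response list at 8 weeks (y axis), with 1 symbol per array and a black bar for the mean of 4. Hsph1 at 1.42 and Calr at 1.08 lie right of 0 on every array, and the arrays of Calr almost coincide.

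The promoters of this list are shown because genes of the endoplasmic reticulum chaperone family share an element, ERSE, with the letters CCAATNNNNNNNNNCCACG, through which the unfolded protein response acts on them. In the 250 bases before the start, 6 of 22 list members with a promoter in the RefSeq table (GRCm38.p6) held it on either strand. Among 27025 promoters of the same length, 0.122% did. The list was chosen as heat shock and unfolded protein response genes, so a share above all promoters does not bear on the strain ratios. Within the list, 4 of the 9 that passed as higher held it, as did Hspa5 and Dnajc3, which did not pass. Whether the element goes with the ratio within the list was not tested. A 3-unit heat shock element, GAANNTTCNNGAA or TTCNNGAANNTTC, was in 1 of the 22 (Hspe1, which did not pass), against 0.4% of all. A match describes these letters and is no shown site. The 6 promoters are printed 5′ to 3′ in the direction of the gene, with the ERSE match in capitals, and lie at Calr chr8:84846932-84847181 (minus strand), Hsp90b1 chr10:86705445-86705694 (minus strand), Pdia6 chr12:17266339-17266588 (plus strand), Creld2 chr15:88819396-88819645 (plus strand), Hspa5 chr2:34771840-34772089 (plus strand), Dnajc3 chr14:118937682-118937931 (plus strand).
Calr: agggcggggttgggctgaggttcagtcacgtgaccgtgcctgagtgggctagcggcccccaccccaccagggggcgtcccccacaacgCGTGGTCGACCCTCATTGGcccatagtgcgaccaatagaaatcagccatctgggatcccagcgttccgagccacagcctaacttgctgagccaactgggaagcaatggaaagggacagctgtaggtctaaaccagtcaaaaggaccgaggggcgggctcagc
Hsp90b1: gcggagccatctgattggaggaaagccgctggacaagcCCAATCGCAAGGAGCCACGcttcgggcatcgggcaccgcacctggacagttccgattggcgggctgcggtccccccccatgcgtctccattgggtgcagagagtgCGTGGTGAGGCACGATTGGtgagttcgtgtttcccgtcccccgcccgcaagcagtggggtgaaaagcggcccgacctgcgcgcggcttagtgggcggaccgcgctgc
Pdia6: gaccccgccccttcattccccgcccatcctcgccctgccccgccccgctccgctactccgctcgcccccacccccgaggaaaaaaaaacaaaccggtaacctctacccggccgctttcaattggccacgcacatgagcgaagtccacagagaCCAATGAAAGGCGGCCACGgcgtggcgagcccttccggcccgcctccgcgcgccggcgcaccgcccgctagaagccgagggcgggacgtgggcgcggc
Creld2: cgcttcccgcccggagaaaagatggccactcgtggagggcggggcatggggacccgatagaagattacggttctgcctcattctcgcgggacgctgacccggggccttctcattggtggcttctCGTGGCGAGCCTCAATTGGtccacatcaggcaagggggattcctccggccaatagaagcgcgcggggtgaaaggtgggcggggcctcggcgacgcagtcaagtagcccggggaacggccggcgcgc
Hspa5: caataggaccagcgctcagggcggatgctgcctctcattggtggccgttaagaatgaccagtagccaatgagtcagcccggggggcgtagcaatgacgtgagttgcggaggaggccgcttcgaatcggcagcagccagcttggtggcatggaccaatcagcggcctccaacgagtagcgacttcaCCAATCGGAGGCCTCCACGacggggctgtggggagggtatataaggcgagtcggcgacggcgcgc
Dnajc3: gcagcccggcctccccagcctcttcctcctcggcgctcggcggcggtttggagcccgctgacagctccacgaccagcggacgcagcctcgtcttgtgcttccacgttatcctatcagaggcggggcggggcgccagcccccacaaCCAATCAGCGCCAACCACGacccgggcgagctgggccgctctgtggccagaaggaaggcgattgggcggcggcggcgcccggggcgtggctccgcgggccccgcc

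Calr, Hsp90b1, Pdia6 and Creld2 passed, whereas Hspa5 (0.24 ± 0.43; adjusted p = 0.614), the main Hsp70 of the endoplasmic reticulum, and Dnajc3 (-0.43 ± 0.78; adjusted p = 0.266) hold the same element and did not. Hsp90b1 held 2 matches, 1 on each strand.

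Cirbp, an RNA-binding protein induced by cold, moved in the other direction from the chaperones. Its NOD signals were 5670, 4960, 5750 and 5070, against NOD.B10 signals of 13800, 13200, 16000 and 16600. The channels did not overlap, and the ratio was -1.47 ± 0.18 (SD, n = 4; adjusted p = 0.0031). Of 16 alternatives it was lost in 1, the fit to 8 weeks alone (adjusted p = 0.0782; range over the alternatives 4.68e-04 to 0.0782).

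Ptpn22, the phosphatase that restrains antigen receptor signalling and a susceptibility gene for autoimmune diabetes, was lower in the NOD node. Its NOD signals were 19800, 17000, 26400 and 29100, against NOD.B10 signals of 50600, 36700, 54000 and 61300, a ratio of -1.14 ± 0.14 (SD, n = 4; adjusted p = 2.8e-04). Each array showed less than in NOD.B10. It was the 1 called gene of the 24 measured in the susceptibility list, whose median was -0.06. Toll-like receptor gene Tlr1 passed with no size limit at 0.56 ± 0.36 (adjusted p = 0.0242) but was lost without replicate 1, 2 or 3, and Ctla4 (-0.26 ± 0.29; adjusted p = 0.652) and Il2 (-0.11 ± 0.23; adjusted p = 0.903) did not.

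The lymphocyte lists had no called gene in limma. Over all genes, 7.41% were higher and 8.53% lower at an unadjusted p under 0.05. Among 28 T cell genes 0 were called and the median was 0.21, with 9 higher and 2 lower at an unadjusted p under 0.05. Among 25 B cell genes 0 were called and the median was 0.23, with 10 higher and 0 lower at that level. With no size limit, Thy1, a T cell surface glycoprotein, passed as higher (0.75 ± 0.35; adjusted p = 0.00506), Il7r, the receptor for a T cell survival cytokine, as lower (-0.68 ± 0.06; adjusted p = 0.0118), and Cr2 and Fcer2a, surface receptors of mature B cells, as higher (0.66 ± 0.24 and 0.66 ± 0.26). Thy1 was lost without replicate 1, Il7r without replicate 1 or 3, Cr2 without replicate 3 and Fcer2a without replicate 1, 2 or 3, and all 4 with the scanner as a block. Foxp3, the regulator of regulatory T cells, was at -0.66 ± 0.38 (adjusted p = 0.199), and Ifng at 0.59 ± 0.74 (adjusted p = 0.247). In whole tissue, fewer cells of a type and less RNA per cell cannot be told apart. Ccl17, a chemokine of dendritic cells, was called lower at -1.08 ± 0.43 (adjusted p = 0.0375) but was lost in 10 of 16 alternatives, including without any 1 of the 4 arrays.

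Lyve1, a hyaluronan receptor of lymphatic endothelium, was lower at -0.97, -1.16, -0.81 and -1.12, a mean of -1.02 ± 0.16 (SD, n = 4; adjusted p = 0.00996), with its second probe at -1.1. Without replicate 1, 2 or 4 it was no longer called. The other 9 measured genes of the lymphatic list were not called, and Prox1, the factor that sets lymphatic identity, stood at 0.26 ± 0.32 (adjusted p = 0.593). Collagen VI chain Col6a3 was higher at 1.12 ± 0.34 (adjusted p = 0.0276) on its brightest probe, the 1 called gene among 28 of the extracellular matrix list, and was lost without replicate 1, 2 or 3. Its 2 dim probes read -0.81 and -0.49.

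Transcripts of the pancreas itself varied widely between the arrays of the NOD channel. The mean log2 signal of 40 acinar genes was 16.9, 11.5, 16.6 and 17.5 in NOD on replicates 1 to 4, against 16.7, 17.1, 17.1 and 16.98 in NOD.B10. The NOD channel of replicate 2 was low, and the list means of the NOD.B10 channel lay within 16.7 to 17.1, with part of the list saturated. The mean log2 ratio was 0.16, -5.65, -0.46 and 0.47, and 0 of 40 genes were called (limma), with 0 higher and 2 lower at an unadjusted p under 0.05. The NOD.B10 signal was saturated on all 4 arrays for 14 of the 40, so those levels and ratios are limited by saturation.

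Islet hormone genes followed the same arrays. Gcg, which encodes glucagon, had NOD signals of 6530, 249, 1020 and 25400, against NOD.B10 signals of 23400, 24200, 15000 and 25400. NOD was far below NOD.B10 on replicates 2 and 3 and level with it on replicate 4, a ratio of -3.08 ± 2.83 (SD, n = 4; adjusted p = 0.0149), and its second probe read -0.47. Sst, somatostatin (-1.46 ± 1.76; adjusted p = 0.0423), and G6pc2, an islet glucose-6-phosphatase subunit (-2.30 ± 2.84; adjusted p = 0.0262), were also called. Of the 34 islet genes, 1, 0, 0 and 5 were called without replicates 1, 2, 3 and 4. Ins1 (-1.86 ± 2.70; adjusted p = 0.254) and Ins2 (-1.79 ± 2.27; adjusted p = 0.416) did not pass. Deaf1, a regulator of peripheral tissue antigens in the node, stood at -1.77 ± 2.87 (adjusted p = 0.356) on its brightest probe, with -5.98 on replicate 2, while its 2 other probes read 0.16 and 0.11. Aire was at 0.19 ± 0.38 (adjusted p = 0.674).

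Other called genes shared the low value of replicate 2. Gls2, a glutaminase, was at -1.58, -6.02, -2.39 and -0.92, and Mat1a, a methionine adenosyltransferase, at -1.72, -5.65, -1.90 and -0.97. Sostdc1, a secreted BMP and Wnt antagonist, was at -1.21, -6.28, -1.99 and -0.57. Klk1b11, a kallikrein, was at -2.51, -5.99, -3.27 and -2.04. These 4 were below 0 on every array, and each was lost as a call without replicate 2 and also without replicate 3, and all but Klk1b11 without replicate 1. The part of the pancreatic signal in these ratios was not tested.

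**Figure D4:**
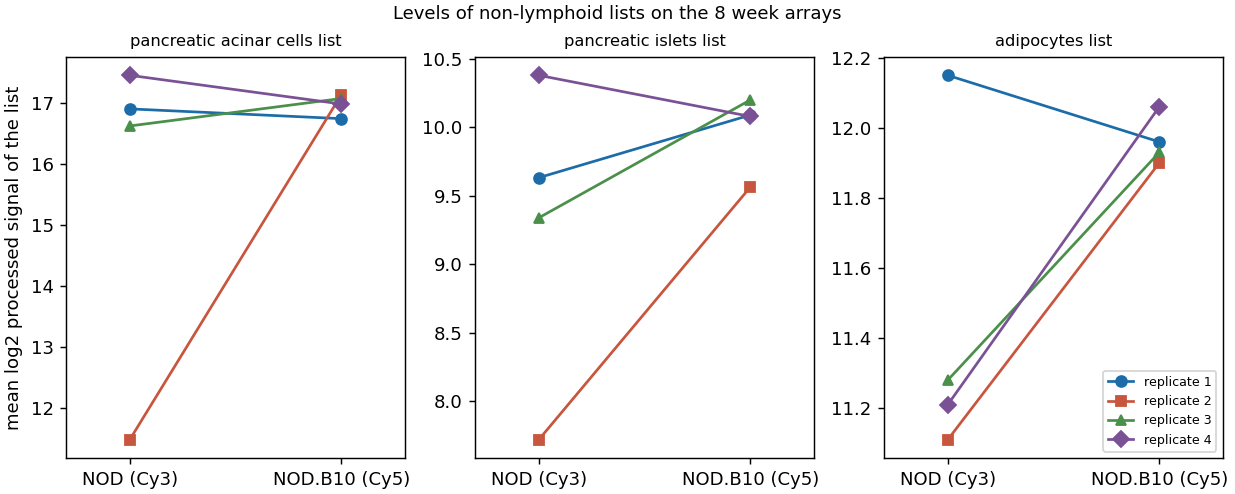
Mean log2 processed signal (y axis) of the acinar, islet and adipocyte lists on the NOD and NOD.B10 channels (x axis) of each 8 week array, with a line joining the channels of 1 array. In NOD, replicate 2 is at 11.5 for acinar genes, and replicate 1 is the highest of the 4 for adipocyte genes.

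Fat cell genes split the arrays in another way. Fabp4, the adipocyte fatty acid binding protein, was at 0.03, -1.78, -1.56 and -1.92, and Cfd, adipsin, at 0.08, -1.77, -1.82 and -1.80. Replicate 1 was near 0 and the other arrays were low, and neither gene was called (adjusted p = 0.136 and 0.406). The mean log2 ratio of the 23 adipocyte genes was 0.18, -0.79, -0.65 and -0.85. Fasn, fatty acid synthase, ran against the list at 2.0, 1.38, 1.36 and 0.65, a mean of 1.35 ± 0.55 (SD, n = 4; adjusted p = 0.00612), with its second probe at 0.50. Fasn was lost without replicate 1.

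A pair of metabolic enzymes stood among the lowest ratios measured in both channels. Pdk4, a kinase that shuts off pyruvate dehydrogenase, had NOD signals of 6030, 2000, 4680 and 4990, against NOD.B10 signals of 18000, 17000, 18000 and 19800. The channels did not overlap, with a ratio of -2.15 ± 0.66 (SD, n = 4; adjusted p = 0.018). Acot1, an acyl-CoA thioesterase, was at -1.43, -2.89, -1.94 and -2.07 (adjusted p = 0.00975). Pdk4 was lost without any 1 of the 4 arrays, and Acot1 without replicate 2 or 3. Map3k6, a stress kinase (-1.61 ± 0.39, second probe -1.06), and Zfp787, a zinc finger gene (-1.58 ± 0.36), stayed called whichever array was left out. Galnt15, a glycosyltransferase (-1.82 ± 0.69), was lost without replicate 3. Arg2, mitochondrial arginase, was at -1.48 ± 0.72 (adjusted p = 0.0171) and was lost without replicate 1, 2 or 3.

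Against the other ages, the ratio at 8 weeks minus the mean of the 5 other age means passed for 203 genes, 97 higher (0.341%) and 106 lower (0.373%), or 79 and 136 with each array centred on its median. Without replicates 1, 2, 3 and 4 it was 63, 258, 77 and 122. The 8 week arrays did not overlap any of the other 31 arrays for 11 of them (0.0387%). No other age was read on the scan days of the 8 week arrays, so age and day cannot be told apart, and the comparisons of ages share the 8 week arrays. Of the named genes among them, Hsph1 had the largest positive difference, a difference of 1.76 ± 0.35 (SE; adjusted p = 0.00498). Its ratio lay between 1.08 and 1.82 at 8 weeks, and between -2.25 and 0.89 on the arrays of the other ages. In the quantile normalised channels taken alone, the difference was 0.26 in NOD and -1.59 in NOD.B10.

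Other genes whose 8 week arrays stood apart from all others were likewise shifted in the control channel for the most part. Exo1, a repair exonuclease, had a difference of 1.07 (-0.28 in NOD and -1.41 in NOD.B10). Gna13, a G protein alpha subunit, had -1.64 (-0.67 and 1.18), and Zfp787 -1.67 (0.06 and 1.89). The second, dimmer probe of Gna13 read 0.10 at 8 weeks, and the call of Gna13 at 8 weeks was lost without any 1 of the 4 arrays. Ift140, an intraflagellar transport gene, had 1.24 (-0.23 and -1.52), but its 3 other probes read -0.10, -0.04 and 0.02 at 8 weeks. Hif1a, the oxygen-regulated transcription factor, shifted mainly in NOD, with -1.04 (-0.97 in NOD and 0.13 in NOD.B10). Armcx4, with -1.22, shifted by like amounts in both channels (-0.63 and 0.70), and its second probe read -0.28 at 8 weeks. At 8 weeks itself the ratios of Exo1 (0.68), Ift140 (0.85), Hif1a (-0.32) and Armcx4 (-0.67) were under the size limit, so these genes were not called there.

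Ptpn22 was also low, and Calr also high, at 16 and 20 weeks. The mean Ptpn22 ratio was 0.33 at 10 days, 0.41 at 4 weeks, -1.14 at 8 weeks, 0.25 at 12 weeks, -1.94 at 16 weeks and -0.92 at 20 weeks, with SDs of 0.14 to 0.44. The mean Calr ratio was 0.11, -1.02, 1.08, -0.36, 1.06 and 1.03 at those ages. The mean Cirbp ratio was lowest at 8 weeks, at -1.47 against -0.17 at 4 weeks and 1.18 at 12 weeks, and its difference from the other ages was -1.68 (adjusted p = 0.00196). Its arrays at 8 weeks overlapped those at 4 weeks but not those at 12 weeks.

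**Figure D5:**
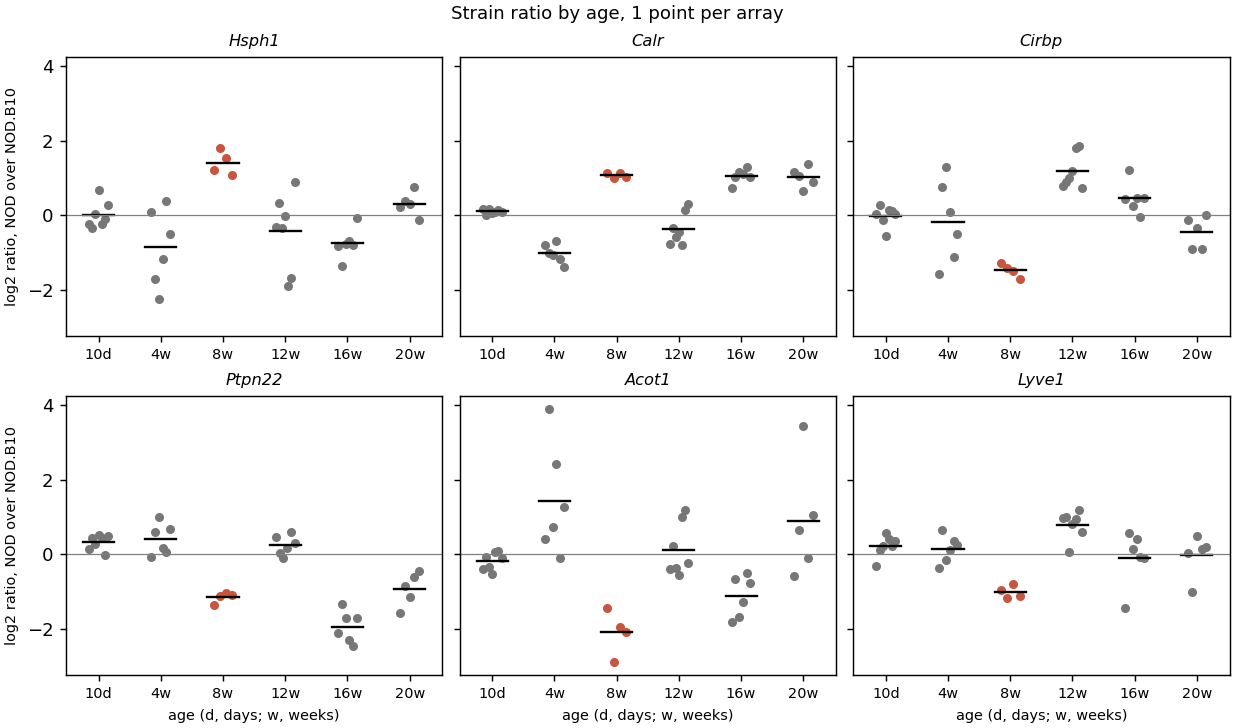
Log2 ratio, NOD over NOD.B10 (y axis), by age (x axis) for Hsph1, Calr, Cirbp, Ptpn22, Acot1 and Lyve1, with 1 point per array, the 8 week arrays in red and a black bar for the mean of each age. Hsph1 at 8 weeks lies clear of every other age, whereas Ptpn22 is also low at 16 weeks and Calr also high at 16 and 20 weeks.

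Against 4 weeks, 2141 genes (7.53%) had a higher ratio at 8 weeks and 1690 (5.94%) a lower one, and against 12 weeks 863 (3.03%) and 307 (1.08%). All 4 week arrays were read on the scanner of replicate 2. Cell cycle genes were higher at 8 weeks in 22 of 49 against 4 weeks and 18 of 49 against 12 weeks, and lower in 0 of both, though at 8 weeks itself 0 were called (limma; 12 higher and 3 lower at an unadjusted p under 0.05, against 7.41% and 8.53% of all genes) and the median was 0.23. Against 4 weeks their median change was -0.31 in the NOD channel and -1.29 in the NOD.B10 channel, beside -0.12 and -0.09 over all genes. Against 12 weeks it was -0.25 and -0.96, beside -0.16 and -0.12.

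Red cell genes were higher at 8 weeks in 12 of 20 against 4 weeks and in 16 of 20 against 12 weeks. Hba-a1, an alpha globin whose probe may also read its near-identical copy, had a difference of 2.96 (adjusted p = 5.07e-05) against 4 weeks and 3.11 (adjusted p = 8.56e-05) against 12 weeks, and Klf1, the erythroid transcription factor, 3.14 and 3.19. Against 4 weeks the list median changed by -0.94 in the NOD channel and -2.50 in the NOD.B10 channel, and against 12 weeks by 0.37 and -1.80. The list median ratio was -0.75 at 10 days, -1.48 at 4 weeks, 0.09 at 8 weeks, -1.97 at 12 weeks, -1.72 at 16 weeks and 1.0 at 20 weeks. The 8 week arrays lay far apart, at -0.14, -0.58, 0.19 and 1.39 on replicates 1 to 4, and the list median was 0.32 without replicate 2 and -0.27 without replicate 4. Neutrophil genes were higher in 9 of 18 against 12 weeks, led by Camp, a cathelicidin, with 3.60 (1.20 in NOD and -2.27 in NOD.B10), whereas against 4 weeks 1 was higher and 3 lower, with Camp at -0.62 (adjusted p = 0.512). Oxidative phosphorylation genes were higher in 16 of 46 against 12 weeks and lower in 12 of 46 against 4 weeks.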

How the data were processed

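Pancreatic lymph node RNA of 8 week old NOD mice was measured on 4 two-colour arrays (RNA by RNeasy columns and linear amplification, per the labels' protocols). Per the file headers, the authors' processed intensities had the background subtracted and the dyes normalised array by array. The headers give Feature Extraction version 8.1.1.1 or 8.5.1.1 where the submitters' processing notes name 8.5. The deposited log10 ratio is NOD over NOD.B10 and equalled the negative of the scanner's within 5e-10. Its median was 0 on each 8 week array with no further centring found, and it was 0 for 6.64% to 16.3% of spots on the 8 week arrays.

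The value analysed was log2 of the processed NOD over NOD.B10 signal. Control spots and outlier flags were left out, saturated spots kept. A probe was kept (40837 of 41174) if 4 of the 35 arrays or more had it well above background in NOD or NOD.B10, and each gene took its brightest probe. Of the probes, 21445 were named by accession, 5431 by symbol and 4636 by synonym in the GRCm38.p6 gene table, and 9662 kept the file's name. Probes were not placed on the genome, since the sources used here do not name the design's genome build, and the coordinates of 6 promoters are those of the RefSeq table.

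Age means were fitted over all 35 arrays with limma 3.58.1 (R 4.3.3), checked on simulated data, and Benjamini-Hochberg adjustment ran over all 28439 genes. The simulated residuals were independent and normal, with no scanner or scan day effect, so that check does not bear on such effects in these arrays. Channels alone were quantile normalised. Deviations of same-numbered arrays correlated at -0.265 to 0.0897, so the main fit did not pair arrays by number, though such values cannot exclude a pairing. Named genes were the 15 highest and 15 lowest called ratios with 1 sign on all 4 arrays and 1 channel well above background, up to 4 called members of each list, the 5 highest and 5 lowest differences between ages whose arrays do not overlap, and a set of lymph node, MHC and diabetes genes, some of which are not reported here. Other list members, second probes and chromosome 17 genes were chosen after their values were seen. The members and lists were chosen with earlier results of these data known. Figures used matplotlib. Alternatives were another background correction, the deposited values, other filters, centring, all probes, size limits, batch and replicate blocks, the 8 week arrays alone and each array left out.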

Additional observations from a re-analysis of the deposited data

Results flagged for a closer look

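With 116 sets of 4 values examined (82 named genes and the lists), 5 had 1 array far from the other 3, and chance gives about 1 in 20. Replicate 2 stood apart for the acinar list (mean log2 ratio -5.65), Zfp787 (-2.11) and Lrp5 (-1.07). Replicate 4 stood apart for Ccl19 (-0.70) and for the list of regulatory T cells and checkpoint receptors (mean -0.30).

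The strain ratio differed between 8 weeks and 4 weeks, by the test of the difference, for Klk1b11 (-5.72), Sostdc1 (-4.38), Rmrp, the RNA of RNase MRP (-4.10), Tspan1, a tetraspanin (-3.98), and Mat1a (-3.56). It was higher at 8 weeks for Srrt (3.28), Klf1 (3.14), Pkdcc (2.97), Hba-a1 (2.96) and Tfr2, an erythroid transferrin receptor (2.94). Between 8 and 12 weeks it differed for Camp (3.60), Hbb-bt, a beta globin (3.58), Redrum, an erythroid transcript (3.41), Fn3k (3.40) and Rhd (3.36), and was lower at 8 weeks for Cirbp (-2.66), Galnt15 (-2.32), Acot1 (-2.21) and Lrp5 (-2.13). Against the mean of the other ages it was higher for Hsph1 (1.76), Ift140 (1.24) and Exo1 (1.07), and lower for Zfp787 (-1.67), Gna13 (-1.64), Armcx4 (-1.22) and Hif1a (-1.04). Age and scan day cannot be told apart in these differences.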

How the results depend on the processing

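The count of 272 called genes (44 higher, 228 lower) was 40 after normexp background correction and loess, 170 with the deposited values (55 higher, 115 lower), 99 and 72 with filters on either or both channels on all 4 arrays, 707 with a size limit of 0.5 and 825 with none. It was 128 with the scanner as a block, 150 with the scan day as a random block, 169 with the replicate block, 4 with 8 weeks alone (6394 genes at an unadjusted p under 0.05), and 87 to 325 without 1 replicate. The 3831 differences from 4 weeks became 880 (normexp), 2290 (both channels), 7257 (limit 0.5), 7682 (no limit) and 7691 (NOD.B10 channel alone), and 3308 to 3764 without 1 replicate. The 1170 from 12 weeks became 350 (normexp), 3173, 3430 (no limit), 4647 (NOD channel alone) and 4109 (NOD.B10 channel alone), and 886 to 1402 without 1 replicate. The 203 from the other ages became 34 (normexp), 131 and 120 (filters), 711, 860 (no limit), 59 with a block for the software version, 59 with the random scan day, 126 with the replicate block, 3185 (NOD channel alone), 3868 (NOD.B10 channel alone), and 63 to 258 without 1 replicate. Centring each array changed their split from 97 higher and 106 lower to 79 and 136. The causes were not tested, other than that fewer arrays or genes enter the filters and the 8 week fit. Of the 43 named genes called, none changed sign under the alternatives run. Each gene was followed on the same probe throughout. With other filters, all probes or 8 weeks alone its ratio was therefore the same by design, and only the adjusted p could change. Probes were not compared by these alternatives, and other probes of Dnah8, Col6a3, Col2a1 and Gna13 had the opposite sign. Normexp kept 20, the scanner block 21, the replicate block 22, and the fits without replicates 1, 2, 3 and 4 kept 22, 21, 17 and 34, while the deposited values kept 42. The number of arrays and, in NOD.B10, the share of spots over background limit the precision.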
